A study of Mus musculus with 3 samples.

Results

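The nuclear genes of the mitochondrial respiratory chain were followed across 1 RXRα, 1 input and 1 RARα library from mouse liver. Members were the protein-coding genes of the GENCODE M1 annotation (mm9) whose symbols begin with Nduf followed by a, b, c, s or v and a number, with Uqcr, with Cox4 to Cox8 or with Atp5, together with Sdha to Sdhd. The rule gave 87 gene records of 22367 protein-coding genes, of which 38 belonged to complex I, 4 to complex II, 8 to complex III, 19 to complex IV and 18 to complex V. Ndufb8 was annotated as 2 records whose starts lie within a few kb of each other and share peaks, so the 87 records carry 86 symbols. Some symbols fit the rule without naming a subunit of the 5 complexes, namely Atp5s, Atp5sl, Cox7a2l and Ndufa4l2, as well as Cox4nb, which is the divergent neighbour of Cox4i1, and Atp5l-ps1, which is named as a pseudogene.

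All 3 libraries came from whole liver of male wild type C57BL/6 mice aged 3 months, for which the labels give no treatment. Chromatin was precipitated with a RARα antibody (sc-551x) or an RXRα antibody, or was kept as input, and each library was made once. The values therefore describe these libraries alone, the spread between mice is unknown, and no difference was tested. Whole liver holds hepatocytes and other cells, and the cell type behind a signal cannot be told apart.

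The respiratory chain passes electrons from NADH (complex I) and succinate (complex II) through complex III to oxygen at complex IV, and ATP synthase (complex V) uses the proton gradient that results. Most subunits are encoded in the nucleus, and their promoters are known for binding sites of NRF1, of ETS factors such as GABP, of YY1 and of the estrogen-related receptor ERR. RARα and RXRα are nuclear receptors that bind DNA as a heterodimer, classically at direct repeats of the half-site AGGTCA, and RXRα is also the partner of other receptors of the liver. Hepatocytes are rich in mitochondria, and they burn fatty acids through this chain.

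The sequences that recurred among the members are shown first, because they can be set beside the binding values that follow. All are given 5′ to 3′ on mm9. A match is a description of the letters and not a measured binding site. The YY1 motif AAGATGGC was found in the sense direction just downstream of the start in 10 members, at 22 to 40 bases after it. Of these, 8 are printed here, with the motif in capitals. In 7 of the 8 the motif overlapped a coding exon, and in Atp5d it lay in an intron of the annotation.
Ndufa3, chr7:3568989-3569012, plus strand: ccaagaacAAGATGGCcgggagta
Ndufa4l2, chr10:126952027-126952044, plus strand: actgggacAAGATGGCag
Ndufa9, chr6:126799118-126799141, minus strand: tgtgggagAAGATGGCggccgccg
Ndufb8, chr19:44629881-44629902, minus strand: agaaggtgAAGATGGCtgccgc
Ndufs4, chr13:115178253-115178275, minus strand: cctacaggAAGATGGCggcggtc
Sdhc, chr1:173080697-173080720, minus strand: cggaactcAAGATGGCtgcgttct
Atp5d, chr10:79601396-79601419, plus strand: gggggaggAAGATGGCtggagacc
Atp5sl, chr7:26404451-26404474, plus strand: tacctggcAAGATGGCggcgccca

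A window of 201 bases centred on the highest bin is shown for a pair of strong RXRα regions, with every motif match in capitals. The first region lay 706 bp upstream of Atp5j, in an intron of Gabpa, and held an NRF1 match (GCGCANGCG, which here reads on both strands) and an ERR match (TCAAGGTCA, on the minus strand). The second region lay 8111 bp upstream of Ndufa3, outside protein-coding genes and nearest to the start of Oscar. It held a direct repeat with 1 base between the half-sites (DR1) with 1 mismatch. The ERR motif contains the half-site AGGTCA, so these matches overlap in kind. Repeats of the genome were not marked in the reference used, and were not looked at here.
Atp5j, chr16:84836492-84836692, plus strand: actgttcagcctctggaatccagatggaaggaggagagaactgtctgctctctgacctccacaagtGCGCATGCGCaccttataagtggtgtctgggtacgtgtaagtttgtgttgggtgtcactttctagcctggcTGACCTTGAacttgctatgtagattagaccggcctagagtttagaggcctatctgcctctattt
Ndufa3, chr7:3560732-3560932, plus strand: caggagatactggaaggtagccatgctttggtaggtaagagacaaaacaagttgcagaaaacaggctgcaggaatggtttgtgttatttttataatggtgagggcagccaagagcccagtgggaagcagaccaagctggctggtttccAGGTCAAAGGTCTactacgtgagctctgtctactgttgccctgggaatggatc

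Receptor half-sites and ERR matches in the same windows of 201 bases at RXRα regions of other members are shown next, with the half-sites or the ERR motif in capitals. Up to 1 mismatch was allowed in each half-site. The Ndufa5 match and the second Sdhd match lay in the window but outside the called region.
Ndufs1 DR1, chr1:63223619-63223643, minus strand: ggctagAGGTTAaAGGTCAaggtcc
Ndufs7 DR1, chr10:79713767-79713791, plus strand: ctcctgAGGTCAgAGTTCAgaagca
Atp5b DR1, chr10:127520027-127520051, plus strand: aactcaAGGTCCaAGGACAgtcaaa
Atp5e DR2, chr2:174289333-174289358, minus strand: ttcgcgGGGTCAtgGGGTCAgggacc
Ndufa5 DR5, chr6:24476500-24476528, plus strand: tcacttGGGTCAatgtgAGGGCAcagagg
Sdhd ERR, chr9:50411902-50411926, plus strand: tcgagggcTCAAGGTCActctacaa
Sdhd ERR, chr9:50410321-50410345, minus strand: caaaaggtTCAAGGTCAtggggcaa

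The signal of RXRα and input was coverage in bins of 32 bp, and its total was equivalent to 9999939 RXRα reads and 9999292 input reads, so the tracks had nearly the same depth. The RARα list held 143280 peaks, of which 32946 had a score over 20, and the depth behind it is unknown because it gives no reads. As a look at the tissue, the 5 hepatocyte genes Alb, Apoa1, Ttr, Serpina1a and Cyp7a1 all had both RARα and RXRα features, as defined below, within 10 kb of the start, where their median RXRα enrichment was 10.3. Of the 5 muscle and pancreas genes Ckm, Myh6, Actn2, Ins2 and Pdx1, RARα was called at 1 and RXRα at 0, with a median enrichment of 0.533.

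Of the 87 members, 80 had at least 1 RARα peak with a score over 20 within 10 kb of the start, which is 92.0% (95% Wilson interval 84.3 to 96.0), against 52.2% of all protein-coding genes. An RXRα region, defined as bins with at least 20 times the input, lay within 10 kb of 57 members, or 65.5% (55.1 to 74.7), against 39.8% of all genes. Where a bin had less input than the genome mean, that mean was used instead, here and for the highest bins given below. A RARα peak that overlapped an RXRα region by at least 25% of the narrower interval, called co-localized here, was found at 47 members, or 54.0% (43.6 to 64.1), against 23.5%. The overlapped region may itself lie beyond 10 kb, as for 1 of the 47, Ndufv2. These intervals, and all others given, cover counting error only. Neighbouring genes can share a peak, so members are not independent of each other.

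Both features were present at 56 members, against 32.6% of all genes. RARα alone was found at 24 members (all genes 19.6%), RXRα alone at 1, Ndufb11 (7.19%), and neither at 6 (40.6%). In all, 181 RARα peaks were assigned to members, of which 63 were co-localized, and 98 RXRα regions. The median member had 2 RARα peaks, whereas the median of all genes was 1.

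Binding lay close to the starts. Within 1 kb, 74 members had a RARα peak (all genes 40.9%), 43 had an RXRα region (21.6%) and 40 had a co-localized peak (15.8%). The highest-scoring peak was within 1 kb for 64 of the 80 members with a peak, or 80.0%, against 66.6% of all genes with a peak. It was within 250 bp for 54, or 67.5%, against 51.9%. For 23 of the 80, however, that peak was nearer to the start of another gene, and 10 of these peaks lay beyond 1 kb.

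The RXRα enrichment at the start was the mean RXRα signal over the mean input signal within 500 bp, with the input taken as no less than the genome mean. Its median was 4.09 over the members and 1.56 over all genes. An enrichment of at least 2 was measured at 68 members (all genes 44.3%), at least 5 at 32 (17.8%), and below 1 at 10 (40.8%). The ratio of RXRα to input reads had an exact 95% interval above 1 at 68 members, and at 40.8% of all genes. The median highest RARα score was 62 over the 80 members with a peak and 48 over all genes with one. Averaged over the members, the RXRα signal was highest at 32 bp after the start, at 14.7 per bin with an input of 2.09, whereas over all genes its maximum was 6.87 with an input of 2.59.

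**Figure D1:**
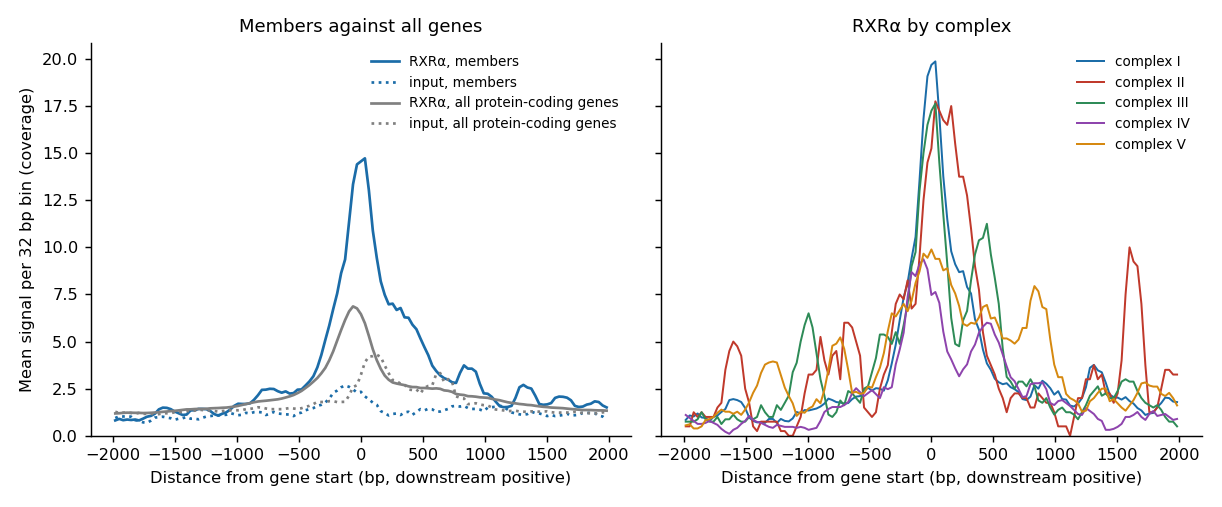
Mean RXRα and input coverage per 32 bp bin against the distance from the gene start in bp, for the 87 members and all 22367 protein-coding genes (left) and for RXRα by complex (right). The members' RXRα curve reaches 14.7 near the start while that of all genes reaches 6.87, and the curves of complexes I, II and III reach 19.9, 17.7 and 17.6 against 9.37 for complex IV and 9.89 for complex V, where complex II averages only 4 genes.

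Complexes I, II, III and V had a RARα peak at nearly every gene, and complex IV at fewer. The counts were 36 of 38 for complex I, 4 of 4 for complex II, 8 of 8 for complex III, 15 of 19 for complex IV and 17 of 18 for complex V. RXRα regions were found at 26, 3, 7, 9 and 12 genes in the same order, and co-localized peaks at 23, 3, 5, 6 and 10. The Wilson intervals of the complexes overlapped. For RXRα regions they were 52.5 to 80.9% for complex I, 52.9 to 97.8% for complex III and 27.3 to 68.3% for complex IV.

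**Figure D2:**
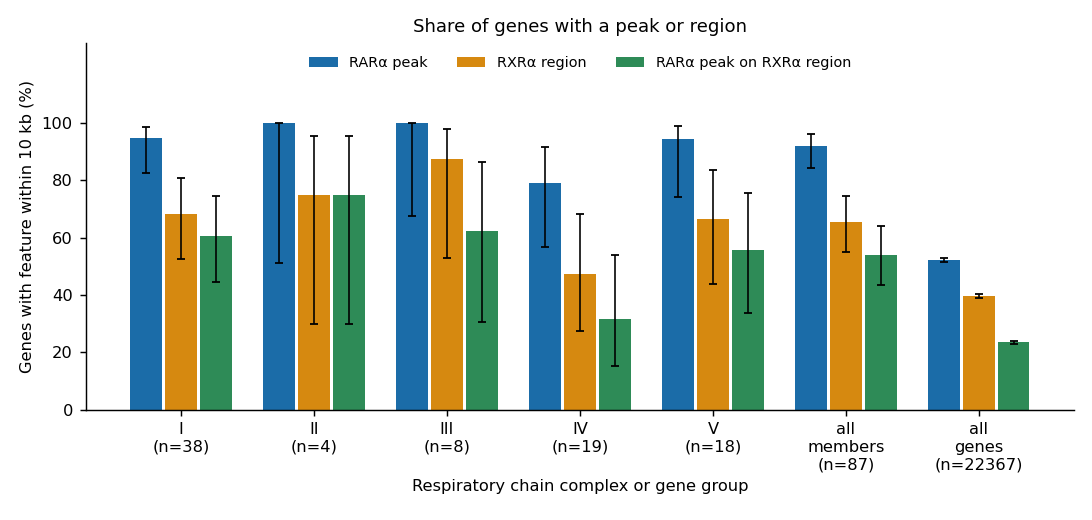
Percent of genes with a RARα peak, an RXRα region or a RARα peak on an RXRα region within 10 kb, by complex, for all members and for all genes, where bars are shares and error bars are 95% Wilson intervals. At these thresholds complex IV has the lowest shares of the 5 complexes (78.9, 47.4 and 31.6%), with intervals that overlap those of the others, whereas at 30 times input RXRα regions are at 6 of 19 genes of complex IV and 2 of 8 of complex III.

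The medians of the 2 readouts ordered the complexes differently, but most of their intervals overlapped. The median RXRα enrichment at the start was 6.44 for complex III, 5.53 for complex II, 4.70 for complex I, 3.37 for complex IV and 3.10 for complex V. The median highest RARα score was instead greatest for complex V, at 71. It was 66 for complex I, 65.5 for complex II, 62.5 for complex III and 43 for complex IV. The 95% intervals of the enrichment medians were 3.31 to 5.22 for complex I and 2.37 to 9.18 for complex III. They were 0.639 to 5.79 for complex IV and 1.70 to 4.42 for complex V. For the score they were 57 to 72, 41 to 120, 37 to 55 and 52 to 86 in the same order. Complex II has too few genes for an interval, and only the score intervals of complexes I and IV were apart. Across the 80 members with a peak, Spearman's rho between the RARα score and the enrichment at the start was -0.05, and across the 64 whose highest peak was within 1 kb it was -0.03. Over all 7773 genes whose highest peak was within 1 kb rho was 0.19. These correlations are across genes, which are not replicates and share 1 library for each axis.

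**Figure D3:**
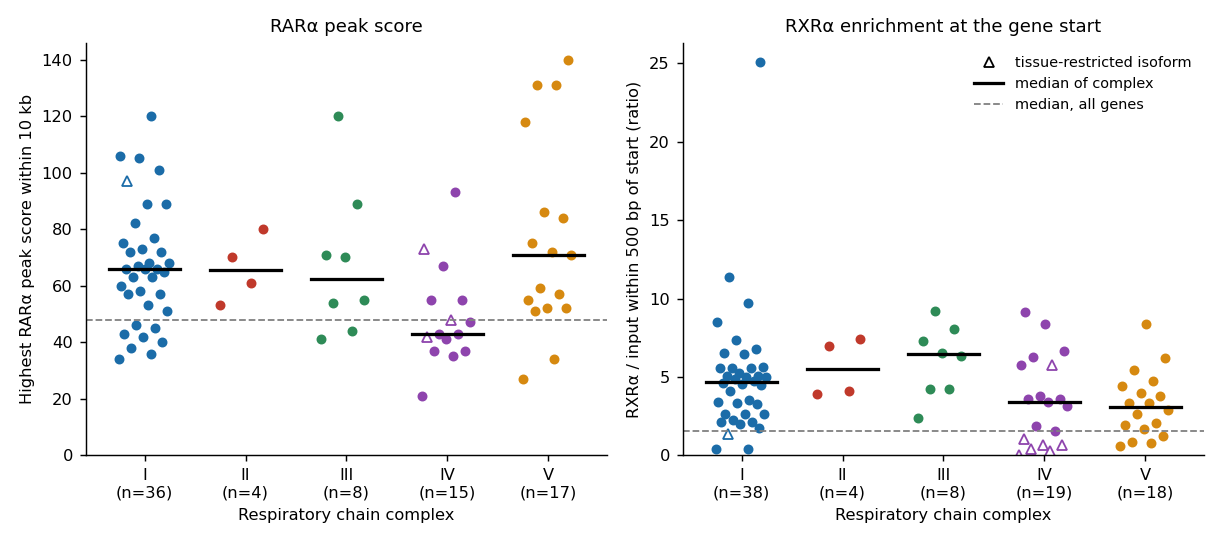
Highest RARα peak score within 10 kb (left, members with a peak) and RXRα over input within 500 bp of the start (right, all 87 members), 1 point per gene by complex, with black bars for the median of the complex, dashed lines for the median of all genes (48 and 1.56) and open triangles for tissue-restricted isoforms. Ndufb6 stands apart at an enrichment of 25.1, and most triangles of complex IV lie below the median of all genes on the right.

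Within complex I, the entry point for electrons from NADH, Ndufb6 had the highest RXRα enrichment of any member. Ndufb6 encodes an accessory subunit of the membrane arm. The window around its start held 140.4 RXRα reads and 5.6 input reads, an enrichment of 25.1 (exact 95% interval of the reads ratio 10.5 to 64.7). Its RXRα region lay 38 bp after the start with a highest bin of 178 times input, the highest of all members. That bin had an RXRα coverage of 108 and no input, so the ratio is to the genome mean. The RARα peak at this start had a score of 49 and co-localized with the region, while the highest score near Ndufb6, 82, belonged to a peak at 9629 bp that was nearer to Topors. The enrichment of Ndufb6 was thus the highest of the members at a RARα peak of ordinary score, but it rests on few input reads. Its RXRα reads were fewer than the 148.0 at Ndufs8, and its interval includes the 11.4 of that gene.

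Ndufs8, an iron-sulfur subunit of the core of complex I, had the next highest enrichment, 11.4, from 148.0 RXRα and 13.0 input reads. It had 5 RARα peaks, 4 of them co-localized, although no score was above 58. The peak with that score, at 5692 bp after the start, and a co-localized peak at 7297 bp were nearest to Tcirg1. Those near the start of Ndufs8 scored 34 to 36. Ndufa3, an accessory subunit, had an enrichment of 9.71 at its start and a stronger RXRα region, of 116 times input, at the upstream window shown above. That region was nearest to the start of Oscar, and the only RARα peak of Ndufa3 over the threshold lay 85 bp after its start. Ndufa7 had its only region, of 106 times input, at 4480 bp after the start. Ndufa3, Ndufa7 and other members named outside the extremes of each complex were chosen after their values were seen.

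The 7 core subunits of complex I, which carry the flavin and the iron-sulfur clusters or the quinone site, all had a RARα peak. Of these, 5 had an RXRα region and 6 a co-localized peak, and their median enrichment was 5.03. The other 31 genes of complex I gave 29, 21 and 17, with a median of 4.64. Ndufv1, the NADH-binding flavoprotein, had a score of 106, from a peak 6609 bp upstream that co-localized with an RXRα region. At Ndufs3 the enrichment was 1.72 with an interval of 0.74 to 4.56, and no RXRα region was called. Ndufb10 had the highest RARα score of complex I, 120, but that peak lay 4588 bp after its start and was nearest to Rps2, a ribosomal protein gene. Ndufb4 had the lowest highest score of complex I, 34.

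Complex II is succinate dehydrogenase, which also belongs to the citric acid cycle. Sdha, the flavoprotein, had 87.2 RXRα and 11.8 input reads at its start, an enrichment of 7.39, and a RARα score of 70. Sdhb, the iron-sulfur subunit, had 67.0 and 16.4 reads (4.09) with a score of 61, and it was the 1 gene of complex II without an RXRα region. The membrane anchors were Sdhc, with 44.4 and 11.4 reads (3.89) and a score of 80, and Sdhd, with 40.4 and 5.8 reads (6.97) and a score of 53. All 4 starts were enriched in RXRα over input, and the intervals of their reads ratios overlapped. Sdhd carried an ERR match in its region at the start, and another beside its region at 1714 bp after the start.

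In complex III, which oxidizes ubiquinol and reduces cytochrome c, Uqcrb had the highest enrichment, 9.18, from 49.6 RXRα and 5.4 input reads. Uqcrq, a small subunit, had 106.6 and 13.2 reads (8.08), a RARα score of 89 at 28 bp after the start, and 6 RXRα regions within 10 kb. All of these regions were nearest to the start of another gene, 4 of them to Leap2 and the rest, at 99 and 931 bp upstream, to Gdf9. The core proteins Uqcrc1 and Uqcrc2 had enrichments of 6.55 and 7.28, and Uqcrfs1, the Rieske iron-sulfur protein, had 4.21. The lowest was Uqcr10 with 40.8 and 17.2 reads (2.37) and a score of 41. Every gene of complex III was therefore above the median of all genes in RXRα. Uqcr11 had a score of 120 from a peak 6965 bp after the start that was nearest to Mbd3.

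Complex V combined high RARα scores with moderate RXRα enrichment. The F1 genes Atp5a1 and Atp5b, which encode the α and β subunits of the catalytic head, both had a peak with a score of 131 near the start. At Atp5a1 the peak was 307 bp after the start, the enrichment at the start was 2.90, and the highest bin within 10 kb was 19.8 times input, just short of the threshold. At Atp5b the peak was 66 bp after the start, and RXRα over input on that peak was 1.42. A second peak of Atp5b, 314 bp upstream with a score of 86, was co-localized and had 6.60. The highest score and the RXRα signal of Atp5b thus lay on neighbouring but different peaks.

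Atp5c1, the γ subunit, scored 72 with an enrichment of 3.31, and Atp5e, the ε subunit, scored 51 with 5.43. Atp5d, the δ subunit, had the most RARα peaks of any member, 6, and the highest score, 140, but that peak lay 9678 bp after the annotated start and was nearest to Midn. The only peak nearest to Atp5d itself scored 24 at 8042 bp upstream, and the others were nearest to Dos or Midn. The annotated start of Atp5d held only 2.4 RXRα and 1.0 input reads (0.62), while another annotated transcript start 2825 bp downstream held 47.8 and 12.2 reads (3.92). Of the genes of the c ring, Atp5g3 had a score of 118, Atp5g1 of 84 and Atp5g2 of 59, whereas their enrichments were 3.97, 3.31 and 8.35. The order of the c-ring genes in RARα was thus not their order in RXRα. Atp5s, which is not a subunit of the core enzyme, had 6.23, and Atp5l, a small membrane subunit, had the lowest score of complex V, 27.

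At Atp5j, which encodes coupling factor F6, the start held 13.6 RXRα and 8.0 input reads (1.70), but the region 706 bp upstream reached 95.8 times input. The co-localized RARα peak there scored 71, and RXRα over input along it was 26.5. Atp5f1 and Ndufa13 were similar, in that their annotated starts had enrichments of 0.84 and 0.40 while a co-localized RARα peak and an RXRα region lay at 882 and 889 bp, and at 832 and 921 bp, after them. Those features were nearest to the starts of Wdr77 and Tssk6. At these 3 genes low values at the annotated start thus came with signal less than 1 kb away. The 2 records of Ndufb8 had 0.42 and 3.50, and the highest-scoring peak lay 2574 bp upstream of the first start and 35 bp after the second.

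Complex IV, cytochrome c oxidase, has subunits in several isoforms, and the isoforms differed in both readouts near the start. Cox7a2, the form of subunit VIIa used in liver, had 87.8 RXRα and 9.6 input reads (9.15) and 3 RXRα regions. Cox5a had 133.8 and 16 reads (8.36) and the highest score of the complex, 93. Cox8a had the lowest score of any member, 21, which is just above the threshold, with an enrichment of 1.57 (0.83 to 3.11). When the 7 restricted isoforms, Cox7a2l and Cox4nb were left out, the remaining 10 genes of complex IV gave 10 with a RARα peak, 6 with an RXRα region and 4 co-localized, with a median score of 42 and a median enrichment of 3.69. The lower median score was therefore also measured among the widely expressed subunits.

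The 8 tissue-restricted isoforms were compared with their 7 widely expressed counterparts. Cox6a2, Cox7a1 and Cox8b are the forms of heart and skeletal muscle, Cox4i2 of lung, and Cox6b2, Cox7b2 and Cox8c of testis, while Ndufa4l2 is known for its induction in hypoxia. A RARα peak within 1 kb was found at 1 of the 8 isoforms, and at 6 of the 7 counterparts (all genes 40.9%). An RXRα region within 1 kb was found at 1 and at 3 (all genes 21.6%). For the restricted isoforms the interval was 2.24 to 47.1% in both counts, which includes the shares of all genes. The median enrichment at the start was 0.639 for the restricted isoforms and 3.79 for the counterparts.

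The restricted isoform had the lower RXRα enrichment in each of the 8 pairs, and in 7 of the 8 when the reads ratio was taken without the floor on the input. The exception was Cox6a2, at 2.0 against 1.87 for Cox6a1. Cox4i2 had 0 RXRα reads against 5.0 input reads, which allows a ratio of up to 1.09, and Cox4i1 had 39.8 against 6.0 (6.63). Cox7b2 had 1.0 against 1.8 reads and Cox7b 25 against 6.6, so the enrichments were 0.27 and 3.79. Cox6b2 had 1.6 reads against 1.0 and Cox6b1 31.0 against 9.2, giving 0.43 and 3.37. The windows at these restricted isoforms held few reads of either library.

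Cox8b and Cox8c both had 0.64, with 2.4 RXRα reads each, against 1.57 at their counterpart Cox8a. Cox6a2 had 4.0 against 2.0 reads (1.07 with the floor) and Cox6a1 33.2 against 17.8 (1.87). Ndufa4l2 had 1.33 and Ndufa4 4.75. Cox7a1 was the exception among the restricted isoforms, with 32.4 against 5.6 reads (5.79) and an RXRα region 54 bp upstream of the start, while Cox7a2 had 9.15.

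The highest bin within 10 kb was lower at the restricted isoform in 6 of the 8 pairs, and higher at Cox8b and Ndufa4l2. Cox8b had 5 RARα peaks with scores of up to 73 and 4 RXRα regions, all of them more than 2 kb upstream, and Cox8a had 1 peak and no region. Ndufa4l2 had 5 peaks with a highest score of 97 and 4 regions, against 2 peaks, a score of 65 and 1 region at Ndufa4. The strongest of the Ndufa4l2 regions, of 54.5 times input at 6085 bp after the start, was nearest to Shmt2. So were its region at 6741 bp and its peak at 7415 bp.

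**Figure D4:**
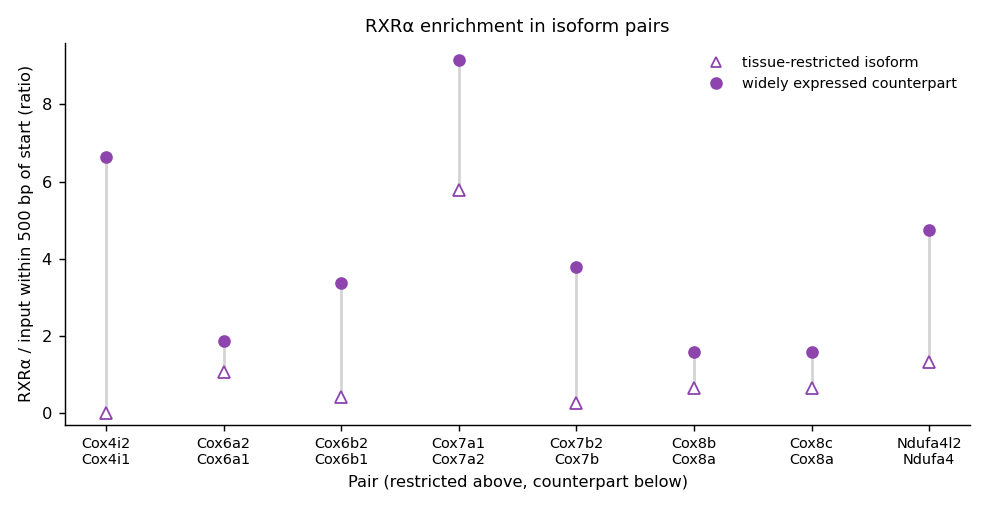
RXRα over input within 500 bp of the start for each of the 8 tissue-restricted isoforms (open triangles) and the widely expressed counterpart (filled circles), joined within a pair. With the input taken as no less than the genome mean, the triangle lies below the circle in all 8 pairs, from 0.00 against 6.63 for Cox4i2 and Cox4i1 to 1.07 against 1.87 for Cox6a2 and Cox6a1, whose order turns without that floor.

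The 7 members without a RARα peak over 20 were Ndufa1, Ndufb11, Cox4i2, Cox6b2, Cox7b2, Cox8c and Atp5l-ps1. Cox4i2, Cox8c and Atp5l-ps1 had 0 listed peaks of any score within 10 kb. The highest listed scores of the others were 16 at Ndufa1, 15 at Cox7b2, 12 at Cox6b2 and 10 at Ndufb11. Ndufa1, an accessory subunit of complex I, had nevertheless 30 RXRα and 5.4 input reads at its start (5.56, interval 2.30 to 19.8). Ndufa1 and Ndufb11 were thus the widely expressed subunits without a called RARα peak. Both lie on the X chromosome, and the mice were male, but a link of this with the missing peaks was not tested. Cox7b, also on the X chromosome, had a highest score of 35 from a peak nearest to Magt1. At the 20-fold threshold, Ndufb2 was just inside with a highest bin of 20.5 times input, and Ndufa8, Atp5a1 and Atp5k were just outside at 19.8, each from a bin with an RXRα coverage of 12 and no input.

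Other genes of the pathway were taken from lists chosen by function. RARα peaks were found at all 21 assembly factors (all genes 52.2%), RXRα regions at 13 (39.8%) and co-localized peaks at 11 (23.5%). The median enrichment of the assembly factors was 2.87. All 5 genes listed as electron carriers and feeders (Cycs, Etfa, Etfb, Etfdh and Ndufab1) had each feature within 1 kb, with a median of 10.2. Over all genes these shares within 1 kb were 40.9, 21.6 and 15.8%. Ndufab1 is on this list although it encodes an acyl carrier protein and accessory subunit of complex I, whose symbol the rule does not take. Of the 11 nuclear regulators, 10 had a RARα peak and 6 an RXRα region. The interval of the latter, 28.0 to 78.7%, includes the 39.8% of all genes. Esrra, which encodes ERRα, had an enrichment of 10.2, while Ppargc1a, a coactivator of mitochondrial genes, had 0 RARα peaks and 0.27.

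The members lay between other gene groups in RXRα. All 15 genes of mitochondrial fatty acid oxidation had all 3 features within 1 kb and a median enrichment of 10.3. The 77 mitochondrial ribosomal protein genes had a RARα peak at 72 (all genes 52.2%), an RXRα region at 43 (39.8%) and a co-localized peak at 32 (23.5%). Their median enrichment was 3.44. The 144 genes with cytosolic ribosomal protein symbols (Rpl or Rps and a number) gave 99, 63 and 43 and a median of 2.14. They were taken by symbol alone, so they include annotated copies and can include genes that are not ribosomal proteins. Their share with an RXRα region, 43.8% (35.9 to 51.9), was near that of all genes. In RARα peaks the members (92.0%) and the mitochondrial ribosomal genes (93.5%) were close, and in co-localized peaks they were at 54.0 and 41.6% with overlapping intervals (43.6 to 64.1 and 31.2 to 52.7).

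Promoter sequence was compared over 250 bases before to 50 after the start, on both strands. The NRF1 motif GCGCANGCG was found at 16 members (18.4%, all genes 8.03%), the ETS motif CCGGAAG at 17 (19.5%, 10.8%), the YY1 motif AAGATGGC at 11 (12.6%, 3.30%) and the ERR motif TCAAGGTCA at 2 (2.30%, 0.358%). At least 1 of these was found at 38 members, or 43.7% (33.7 to 54.1), against 19.9% of all promoters. Among all genes whose highest RARα peak lay within 1 kb this share was 37.1%, which is inside the interval of the members. Their shares for NRF1 and ETS were 16.4 and 20.9%, also near those of the members, whereas for YY1 theirs was 5.20% (4.73 to 5.71) and that of the members had an interval of 7.21 to 21.2%.

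**Figure D5:**
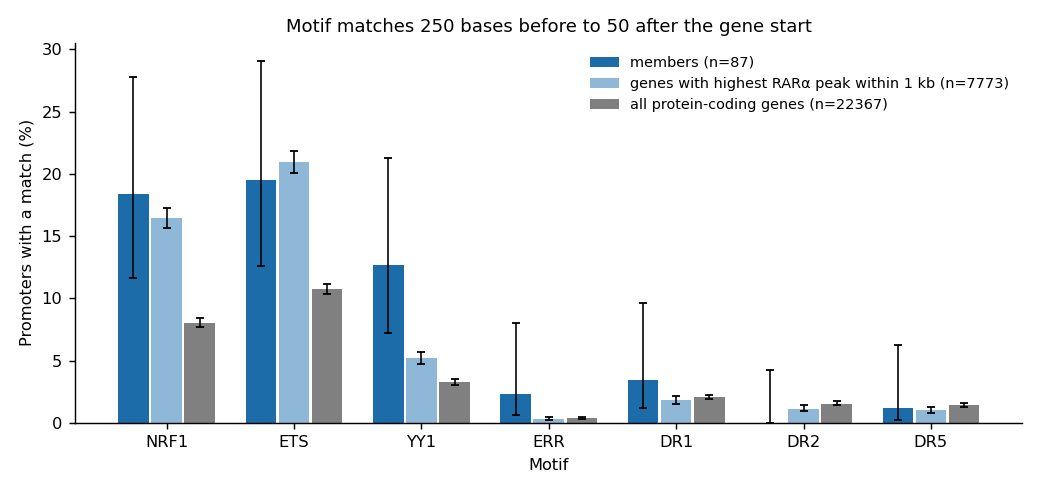
Percent of promoters (250 bases before to 50 after the start) with at least 1 match to each motif on either strand, for the 87 members, the 7773 genes whose highest RARα peak lies within 1 kb and all 22367 genes, with 95% Wilson intervals. YY1 is at 12.6, 5.20 and 3.30%, while NRF1 and ETS are similar between the members and the genes with a RARα peak.

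The sense YY1 motif downstream of the start, shown in the sequences above, was found at 10 members (11.5%) and at 161 of all genes (0.720%). Its position and strand were looked at after the matches had been seen. Of these 10 members, 9 had an RXRα region and 9 a co-localized peak, and their median enrichment was 4.33, against 48 and 38 of the other 77 members and a median of 4.09. Of the 11 members with the motif, 7 were in complex I, 1 in complex II and 3 in complex V, and 0 in complexes III and IV.

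Direct repeats of AGGTCA were rare at promoters, at those of members as at those of all genes. A spacing of 1 was found at 3 members (3.45%, all genes 2.05%), of 2 at 0 (interval up to 4.23%, all genes 1.54%) and of 5 at 1 (1.15%, 1.45%). In windows of 201 bases at the 97 separate RXRα regions of members, any of these repeats was found in 9 (9.28%, interval 4.96 to 16.7), against 11.9% of the 15094 regions within 10 kb of any gene start. In the windows of the 50 regions within 1 kb of a member, the YY1 motif was found in 8 (16%, interval 8.34 to 28.5) against 2.13% of such windows at all genes, and the ERR motif in 3 (6.00%, 2.06 to 16.2) against 0.850%. For NRF1 and ETS the intervals included the shares of all genes, with 4 windows (8%, 3.15 to 18.8) against 6.01% and 7 windows (14%, 6.95 to 26.2) against 8.46%.

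A start shared head to head with another protein-coding gene within 1 kb was annotated for 22 members, or 25.3%, against 7.15% of all genes. Among them were Sdha with Ccdc127, Sdhd with Timm8b, Ndufs1 with Eef1b2, Ndufa7 with Rps28 and Cox4i1 with Cox4nb. At such starts a peak cannot be assigned to 1 of the genes. The median observed over expected CpG ratio of the promoters was 0.720 for the members, 0.549 for all genes and 0.767 for the genes whose highest RARα peak lay within 1 kb.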

How the data were processed

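RXRα, input and RARα libraries were made once each, so no test was run. Per the labels and processing notes, the authors used CASAVA 1.4, Bowtie and, for RARα, MACS. The deposited signal of RXRα and input is coverage in 32 bp bins, where a read covers 5 bins. The deposited RARα list holds a score per peak, whose definition is not given in the sources used here, positions and a false discovery rate in percent, which was not used as a filter. The methods name mm10 for alignment and mm9 for annotation; the file headers name mm9, which was used with GENCODE M1.

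The RXRα track was scaled to the mean of the input. A bin passed at 20 times the larger of its input and the mean input (0.606), which takes an RXRα coverage of 13 over an empty bin, and bins within 200 bp were joined. The values of the score, distance, fold and overlap thresholds are those of the study's methods, but the application of the fold to single bins and of the overlap to the narrower interval was chosen here. The steps were tested on simulated data. Motifs were read from the mm9 genome.

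The members and lists were chosen with earlier results of these data known. Named genes were the 2 highest and the lowest of each complex in score and in enrichment, the isoform pairs, members without a RARα peak, the member with most peaks and those at a threshold. Alternatives changed 1 setting at a time. Python 3.11.15, numpy 2.4.6, pandas 2.3.3, scipy 1.17.1 and matplotlib 3.10.9 were used. The sequence of 1 member is not reported here.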

Additional observations from a re-analysis of the deposited data

How the results depend on the processing

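No paired analysis was possible because each antibody has 1 library. With a score over 50, complex I had 14 co-localized genes, and complex IV had 5 with a RARα peak and 2 co-localized (all genes 24.6% with a RARα peak and 10.9% co-localized). At 10 times input, 73 members, 8 genes of complex III and 14 of complex IV were co-localized, and 15 of complex IV had an RXRα region (all genes 38.9% co-localized). At 30 times input, RXRα regions were found at 32 members, 14 genes of complex I, 2 of complex III and 7 of complex V, and co-localized peaks at 26 members, 11 genes of complex I and 2 of complex III (all genes 14.9%). With the mean input alone, 73 members, 11 genes of complex IV and 17 of complex V were co-localized, and the median enrichment was 10.8 (all genes 36.2% co-localized, median 2.34). The cause of these changes was not tested beyond the thresholds themselves, and in all genes the share with an RXRα region moved likewise, from 39.8% to 60.2% at 10 times and 27.9% at 30 times input.

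The other 166 values stayed within 1.5 times the count or within the interval of the median. They include alternatives chosen after seeing the data, namely any annotated transcript start or the most enriched one, peaks of the nearest gene only for the median score, and leaving out Cox4nb, Atp5l-ps1 and 1 record of Ndufb8. Counts near a threshold rest on few reads, and the genome mean of the input, used as its floor, equals 3.78 reads per window at a start.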

Other observations

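The 13 subunits encoded by the mitochondrial genome itself are not members. Over their bodies RXRα over input was 0.0641 (mt-Nd6) to 0.0784 (mt-Atp8), with a median of 0.0704, from 257.4 to 3304.0 RXRα and 3285 to 49786 input reads per gene. The mitochondrial chromosome held 0.261% of RXRα reads and 3.64% of input reads, and it had 0 RARα peaks of any score. These values describe 1 library each and were not tested.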
